A study of Mus musculus with 4 samples.

Results

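Fc gamma receptors are the surface proteins with which leukocytes bind antibodies of the IgG class, and the 7 genes described here cover them together with the molecules they signal and work through. The members were Fcgr1, Fcgr2b, Fcgr3, Fcgr4, Fcer1g, Fcgrt and Syk, and each was taken from the array feature whose annotation held that symbol and no other. All 7 had exactly 1 such feature, and 0 features paired a member with another gene. They are 7 of 30142 genes with a symbol, and all 7 lay above the expression floor used for testing, as did 18084 genes in all. That floor, a mean log2 signal of 5.82, was set at the 40th percentile.

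Lung RNA came from male C57BL mice, an inbred laboratory strain, that breathed clean air (the control) or mainstream cigarette smoke from 10 weeks of age for 1 h per day on 5 days per week. Lungs were taken after 2 weeks, at 12 weeks of age, or after 4 weeks, at 14 weeks of age. Each of the 4 groups was 1 pool on 1 array, of 5 mice each for the 2-week control, the 2-week smoke and the 4-week control pools and of 4 mice for the 4-week smoke pool. No transgene or other allele is named in the labels. The spread between animals cannot be seen in a pool, and no group had a replicate array, so that a difference between 2 pools is given as a value without a test. The only test sets the smoke effect over both durations against the change of that effect between durations, in limma with terms for smoke and duration. That leaves 1 residual degree of freedom, so the spread of a gene comes largely from a prior over all genes. A Benjamini-Hochberg adjusted p under 0.05 over 18084 genes counts as a call, "rose" is used only for called genes, and an effect is written as log2 smoke minus control ± its standard error. Median signals of the arrays ran from 58.8 to 61.7, and the median smoke difference of all genes was 0.01 at 2 weeks and -0.02 at 4 weeks. No source used here gives the base of the deposited linear values. Log2 assumes base 2, and with base e each log2 value given would have to be multiplied by 0.693. Fold changes would then be smaller too. Over both durations they would be 1.89 for Fcer1g, 1.51 for Fcgr3 and 1.43 for Fcgr2b. Fcgr3 at 2 weeks and Fcgr4 at 4 weeks would drop below 1.5-fold, so the counts of members past that limit would be lower. The lung markers Sftpc, Sftpb and Lamp3 (alveolar type 2 cells) and Pecam1 and Cdh5 (endothelium) had log2 signals of 14.70 or more in every pool.

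As background, Fcgr1, Fcgr3 and Fcgr4 are the activating receptors of the mouse. They bind IgG outside the cell and depend on the common gamma chain, encoded by Fcer1g, whose cytoplasmic tail carries an immunoreceptor tyrosine-based activation motif (ITAM). When antibody clusters the receptors, kinases of the Src family phosphorylate the ITAM, and the kinase Syk docks there and passes the signal on to phagocytosis, the oxidative burst and cytokine release. Fcgr2b is the inhibitory receptor, with an inhibitory motif (ITIM) that recruits the lipid phosphatase encoded by Inpp5d. Fcgrt encodes the neonatal Fc receptor FcRn, an intracellular, MHC class I-like molecule that pairs with beta-2 microglobulin and spares IgG and albumin from degradation. In the lung, macrophages, monocytes, neutrophils and dendritic cells carry Fc gamma receptors, while FcRn is also found in epithelium and endothelium.

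Fcer1g, Fcgr3 and Fcgr2b rose in smoke-exposed lungs, by 2.50-fold, 1.81-fold and 1.68-fold over both durations. Fcgr4, Fcgr1 and Syk were higher in the smoke pool at each duration by smaller amounts and did not pass the test, and Fcgrt did not share this pattern. In all, 3 of 7 members rose and 0 fell, where 1.15% of all genes tested rose (208 of 18084) and 0.315% fell (57 genes). After 2 weeks, 2 of 7 members were at least 1.5-fold higher in the smoke pool (1.82% of all genes) and after 4 weeks 4 of 7 (2.53% of all genes). In 6 of 7 members both smoke pools lay above both control pools, as they did in 15.7% of all genes. For Fcgr1 the margin was 0.01, which turned to -0.004 when the arrays were quantile normalized again, leaving 5 of 7.

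**Figure D1:**
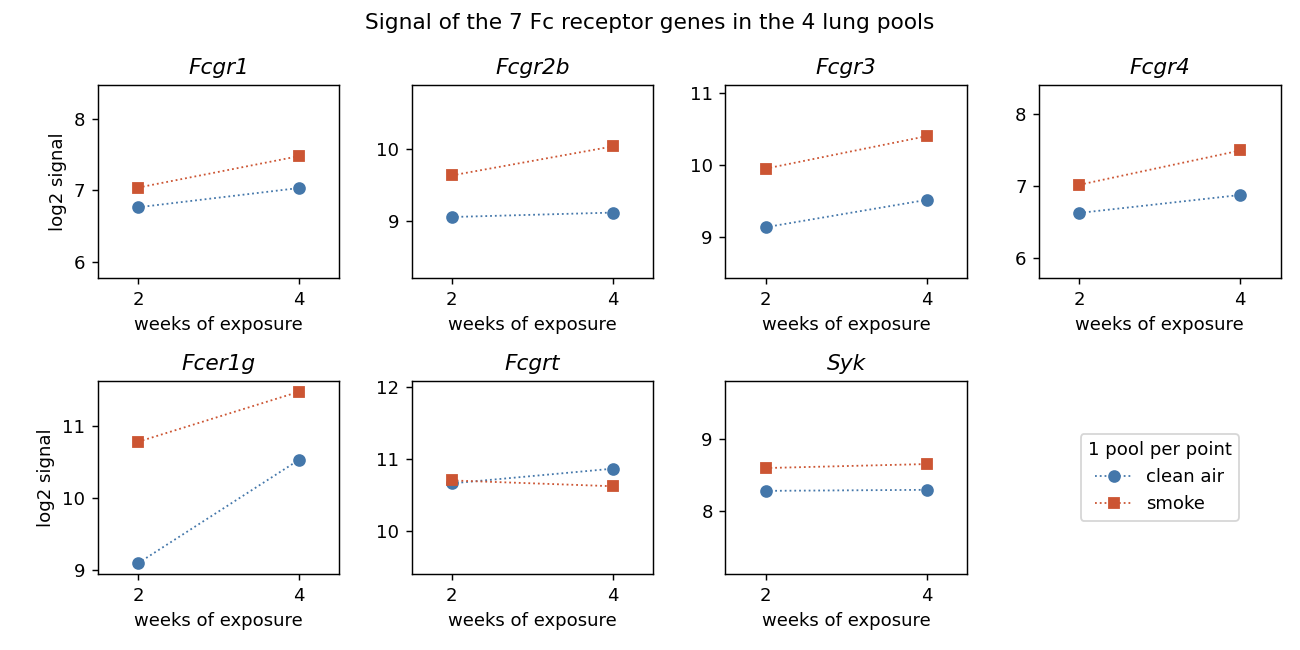
Log2 signal (vertical axis, the same span of 2.7 units in every panel) of the 7 genes against weeks of exposure (2 or 4), with circles for clean air and squares for smoke; each point is 1 pool on 1 array, so there are no error bars, and dotted lines join pools of the same exposure. The smoke pool lies above the control pool of the same duration at both durations in every panel but that of Fcgrt, and the Fcer1g control pools lie 1.44 apart.

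The common gamma chain gene Fcer1g had a log2 signal of 9.09 in the 2-week control, 10.78 in the 2-week smoke, 10.53 in the 4-week control and 11.48 in the 4-week smoke pool. Both smoke pools were above both controls, by at least 0.25, yet the 2-week control stood apart as the low value of the 4. The smoke difference was 1.69 (3.23-fold) at 2 weeks and 0.95 (1.93-fold) at 4 weeks. Over both durations Fcer1g rose by 1.32 ± 0.178 (limma adjusted p = 0.0274), the 53rd largest increase of all genes tested. The 4-week control pool was itself 1.44 (2.72-fold) above the 2-week control pool, a difference larger than that of 99.9% of genes and larger than the 4-week smoke difference. No other member differed by 1.5-fold between the controls, where 1.85% of all genes were higher by that much.

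The low-affinity activating receptor gene Fcgr3 (CD16) had 9.13 and 9.52 in the 2-week and 4-week controls and 9.95 and 10.40 in the smoke pools of the same durations. The groups did not overlap, and the lower smoke pool was 0.44 above the higher control. Its smoke differences of 0.82 (1.76-fold) and 0.89 (1.85-fold) were the most alike of the 3 called genes. Fcgr3 rose by 0.85 ± 0.101 (limma adjusted p = 0.0187), which was the lowest p of the 7 genes and rank 107 of all genes tested.

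The inhibitory receptor gene Fcgr2b (CD32) had 9.06 and 9.12 in the controls and 9.64 and 10.04 after 2 and 4 weeks of smoke. Its controls were nearly level, 0.06 apart, and the lower smoke pool was 0.52 above them, the widest gap of the 7 genes. The difference was 0.58 (1.49-fold) at 2 weeks, just under the 1.5-fold limit, and 0.92 (1.90-fold) at 4 weeks. Fcgr2b rose by 0.75 ± 0.121 with a limma adjusted p of 0.0465, close to the threshold, and the call was lost with no expression floor (adjusted p = 0.0582). Fcgr2b and Fcgr3 encode receptors with closely related extracellular domains. The probe sequences were not used here, so cross-hybridisation between the Fcgr features was not tested.

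All 3 calls were lost when the arrays were scaled again (median centring, cyclic loess or quantile normalization) and in the fit without duration. The adjusted p was then 0.102 to 0.755 for Fcer1g, 0.0799 to 0.433 for Fcgr3 and 0.157 to 0.343 for Fcgr2b, while the effects moved by 0.04 at most. They were also lost when any 1 pool was left out, in fits on 3 arrays without duration. Without the 2-week control, 2-week smoke, 4-week control and 4-week smoke pool the effect of Fcer1g was then 0.60, 1.67, 2.04 and 0.97, that of Fcgr3 0.66, 1.08, 1.04 and 0.63, and that of Fcgr2b 0.72, 0.95, 0.78 and 0.55. When only the 12581 genes annotated as protein coding were fitted, 6 of 7 members rose, with 4.49% of those genes.

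**Figure D2:**
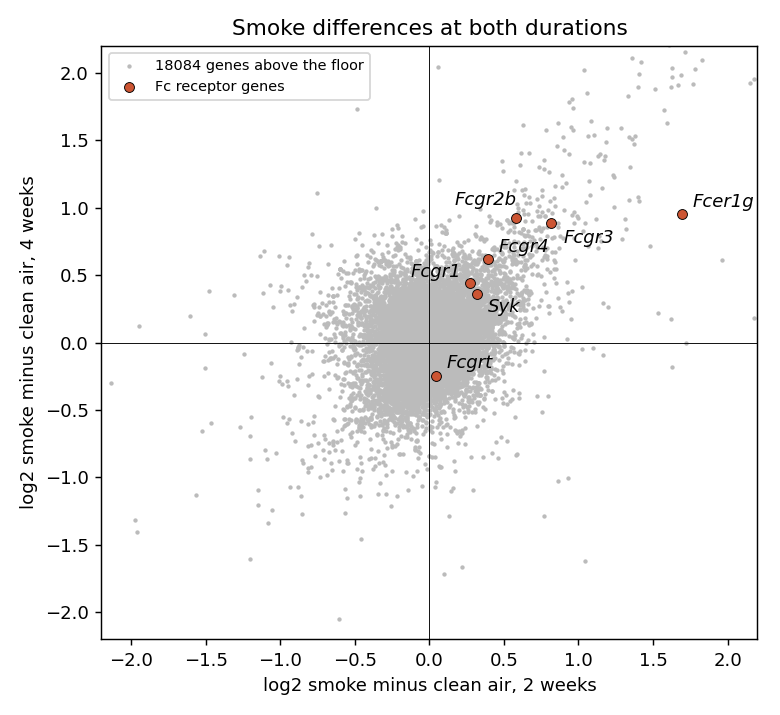
Log2 smoke minus clean air at 2 weeks (horizontal axis) and at 4 weeks (vertical axis) for the 18084 genes above the floor (grey points) and the 7 Fc receptor genes (red points, named); 28 genes beyond the axis limits of ±2.2 are not drawn. Fcgr1, Syk, Fcgr4, Fcgr2b and Fcgr3 run from 0.27 to 0.82 at 2 weeks and from 0.36 to 0.92 at 4 weeks, Fcer1g is displaced to the right at 1.69 and 0.95, and Fcgrt is at 0.04 and -0.24.

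The other activating receptors had lower signals on their features. Fcgr4, a receptor of intermediate affinity for IgG, had 6.62 and 6.87 in the controls and 7.02 and 7.49 in the 2-week and 4-week smoke pools. The groups were separate by 0.14. Its differences were 0.39 (1.31-fold) and 0.62 (1.54-fold), and the effect of 0.51 ± 0.110 did not pass (limma adjusted p = 0.119). Fcgr1, the high-affinity receptor CD64, had 6.76 and 7.03 in the controls and 7.04 and 7.48 with smoke. The 2-week smoke pool was therefore at the level of the 4-week control. Its differences were 0.27 (1.21-fold) and 0.44 (1.36-fold), and the effect was 0.36 ± 0.106 (limma adjusted p = 0.237).

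The kinase gene Syk had 8.28 and 8.30 in the controls and 8.60 and 8.65 in the smoke pools. The controls differed by only 0.01, and both smoke pools were above them by at least 0.30. The differences of 0.32 (1.25-fold) and 0.36 (1.28-fold) were nearly the same at both durations, and the effect of 0.34 ± 0.101 did not pass (limma adjusted p = 0.241). Syk is also used by B cell and lectin receptors, so its transcript is not particular to Fc receptor signalling. Syk, Fcgr1 and Fcgr4 passed when protein-coding genes alone were fitted, with adjusted p of 0.0469, 0.0401 and 0.00575.

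Fcgrt, the neonatal Fc receptor, had 10.66 and 10.86 in the controls and 10.70 and 10.62 in the smoke pools, so the groups overlapped and the values spanned 0.24. Its smoke difference was 0.04 at 2 weeks and -0.24 at 4 weeks, and the effect of -0.10 ± 0.115 did not pass (limma adjusted p = 0.855). Its partner B2m, the light chain that FcRn shares with MHC class I, was at 0.18 ± 0.101 (limma adjusted p = 0.619). Alb, the gene of its other ligand albumin, had log2 signals of 5.66 to 6.05, near the floor.

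The balance between activating and inhibitory receptors is a common way to describe Fc receptor responses, and it was followed here as the difference in smoke change between 2 genes. The smoke difference of Fcgr3 minus that of Fcgr2b was 0.24 at 2 weeks and -0.03 at 4 weeks, with the same signs under each scaling tried. The same quantity between the control pools was 0.32, larger than at either duration of smoke. For Fcgr4 minus Fcgr2b it was -0.19 and -0.30, and for Fcgr1 minus Fcgr2b -0.31 and -0.48. Between the control pools the same quantities were 0.19 and 0.21, as large for Fcgr4 as the 2-week value in size. For Fcer1g minus Fcgr3 it was 0.88 at 2 weeks, 0.06 at 4 weeks and 1.06 between the controls. These contrasts have no replicate and no test.

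Fcgr2b, Fcgr4, Fcgr3 and Fcer1g lie in this order on chromosome 1 in RefSeq (GRCm38.p6). Of 44 other genes between them or within 3 genes of either end, many of them transfer RNA genes, 11 had a feature with their symbol alone and 8 lay above the floor. Their effects ran from -0.23 to 0.44 with a median of -0.04, and 0 of the 8 passed limma, with 1 at an unadjusted p under 0.05. That gene was Cfap126, a cilia gene and the next protein-coding gene after Fcgr3 in that order, named after its value was seen, at 0.44 ± 0.101 (limma adjusted p = 0.131); it passed when protein-coding genes alone were fitted. Sdhc, a subunit of the respiratory chain, Tomm40l, a mitochondrial import gene, and B4galt3, a galactosyltransferase beyond Fcer1g, had effects of -0.001, -0.03 and -0.004. The Fc receptor homologue Fcrla, on the far side of Fcgr2b, was at -0.05 ± 0.135.

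**Figure D3:**
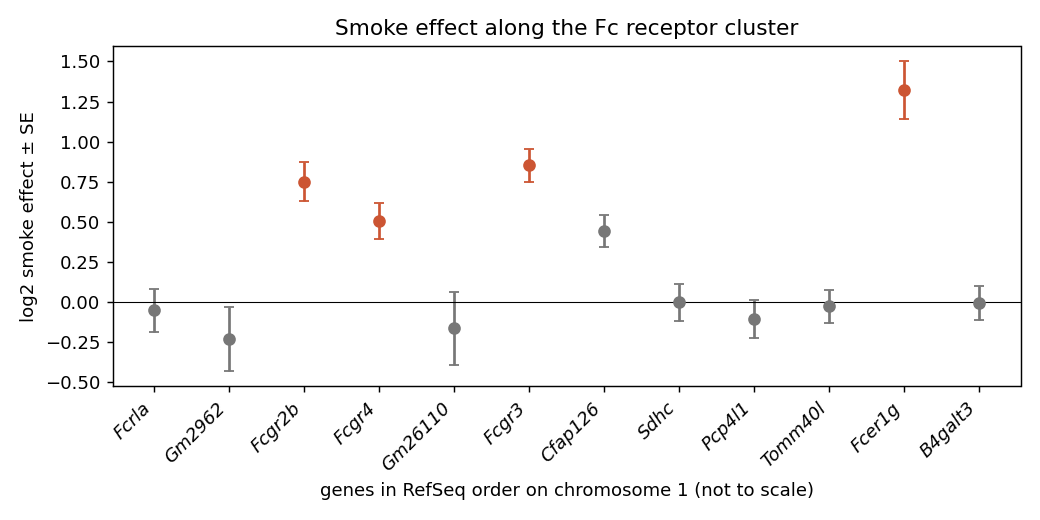
Log2 smoke effect over both durations (vertical axis) for the genes above the floor in and around the chromosome 1 Fc receptor cluster, in RefSeq gene order along the horizontal axis and not to scale; points are limma estimates from 4 pools, bars are ± 1 standard error, and red marks Fc receptor genes. Fcgr2b, Fcgr3 and Fcer1g at 0.75 to 1.32 and Fcgr4 at 0.51 stand above the 8 neighbours, the highest of which is Cfap126 at 0.44.

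The promoters of all 7 members, in and outside this cluster, were searched for the letters of 2 motifs known from Fc receptor genes. These are GAGGAA, the core bound by the myeloid transcription factor PU.1, which reads TTCCTC on the other strand, and TTCNNNGAA, the palindrome of the interferon gamma activated site. RefSeq (GRCm38.p6) gave 9 windows for the 7 genes, each running from 250 bases before to 50 bases after a transcript start. The 3 called genes and Fcgr1 are printed, 5′ to 3′ on the gene's own strand, with motif matches in capitals. Fcgr1 lies on chromosome 3, outside the cluster, and Fcgr4, which lies in the cluster, is not printed. They are Fcgr3 (chr1:171059354-171059653, minus strand), Fcgr2b (chr1:170976022-170976321, minus strand), Fcer1g (chr1:171234300-171234599, minus strand) and Fcgr1 (chr3:96293920-96294219, minus strand).
Fcgr3: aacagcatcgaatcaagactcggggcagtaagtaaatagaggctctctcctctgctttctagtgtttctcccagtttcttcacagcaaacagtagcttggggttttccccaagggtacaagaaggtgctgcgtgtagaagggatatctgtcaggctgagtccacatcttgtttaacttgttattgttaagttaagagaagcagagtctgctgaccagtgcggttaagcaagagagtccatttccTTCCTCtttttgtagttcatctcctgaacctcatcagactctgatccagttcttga
Fcgr2b: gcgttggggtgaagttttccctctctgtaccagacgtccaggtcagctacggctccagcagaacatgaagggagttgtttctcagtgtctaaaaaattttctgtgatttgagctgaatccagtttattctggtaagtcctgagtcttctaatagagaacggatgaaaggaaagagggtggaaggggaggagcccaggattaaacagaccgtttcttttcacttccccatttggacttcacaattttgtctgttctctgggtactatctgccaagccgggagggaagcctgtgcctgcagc
Fcer1g: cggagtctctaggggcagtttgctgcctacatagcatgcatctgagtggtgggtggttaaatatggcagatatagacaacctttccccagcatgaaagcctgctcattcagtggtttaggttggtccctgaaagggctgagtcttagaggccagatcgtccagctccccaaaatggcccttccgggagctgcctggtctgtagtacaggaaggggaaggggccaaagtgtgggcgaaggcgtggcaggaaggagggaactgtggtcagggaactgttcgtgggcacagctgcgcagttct
Fcgr1: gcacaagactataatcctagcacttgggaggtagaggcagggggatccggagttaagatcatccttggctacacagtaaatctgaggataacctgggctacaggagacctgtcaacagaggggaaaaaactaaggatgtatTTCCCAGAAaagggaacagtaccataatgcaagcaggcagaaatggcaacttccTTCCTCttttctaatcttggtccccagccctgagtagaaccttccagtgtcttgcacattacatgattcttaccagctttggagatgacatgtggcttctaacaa

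The Fcgr3 window held TTCCTC with its first base 6 bases before the transcript start, and the Fcgr1 window held it 55 bases before the start. The unprinted window of Fcgr4 held it 22 bases before the start, and 1 of 2 windows of Syk held GAGGAA. With the overlapping alternative start of Fcgr3, 5 of 9 member windows and 4 of 7 genes held the PU.1 letters, which 28.3% of 32851 RefSeq promoter windows of the same length also held. The interferon gamma activated site was matched in the Fcgr1 window alone among the 9, as TTCCCAGAA starting 109 bases before the start, and in 8.30% of all windows. Fcgr2b and Fcer1g rose and held neither motif in this window, and Fcgr3 rose and held the PU.1 letters. Fcgr1 held both motifs and passed only when protein-coding genes alone were fitted (limma adjusted p = 0.0401). A link between the letters and the smoke effects was not tested. The matches do not overlap each other, and a match of letters does not show binding.

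The genes around the receptors were taken from 8 lists, which hold 79 genes above the floor. Of these, 13 rose, 0 fell and 66 did not pass, where 1.47% of all genes passed in either direction. The median effect was 0.22, against -0.004 for all genes tested. After cyclic loess scaling 1 of the 13 calls, Clec5a, was kept.

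Among adaptors with an ITAM, Tyrobp (DAP12), which serves myeloid and NK cell receptors as Fcer1g serves Fc receptors, had 7.868 and 8.216 in the controls and 8.996 and 9.597 with smoke. Both smoke pools were above both controls, and Tyrobp rose by 1.25 ± 0.112 (limma adjusted p = 0.0069). It was the 1 of 7 adaptor genes above the floor to pass. The T cell receptor chains Cd3e, Cd3g, Cd3d and Cd247 and the B cell receptor chains Cd79a and Cd79b had effects of 0.62, 0.12, 0.20, -0.02, 0.03 and -0.32. Tyrobp differed by 0.35 between the controls, against 1.44 for Fcer1g.

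Of 8 receptors that pair with Fcer1g or signal through Syk, 4 rose, and the list's median effect was 0.73. They were the lectin receptor Clec5a (2.33 ± 0.102), Dectin-2, encoded by Clec4n, which uses Fcer1g (1.73 ± 0.180), Dectin-1, encoded by Clec7a, which engages Syk directly (1.65 ± 0.140), and the lipid-sensing receptor Trem2 (0.86 ± 0.135). Clec4d, a lectin receptor that also uses the gamma chain, was at 0.60 (limma adjusted p = 0.0900), and Clec4e, Mincle, was at 0.05. The platelet collagen receptor Gp6 was at -0.17 and Trem1 at -0.12, and neither passed.

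Of 13 other antibody-binding proteins, 8 lay above the floor and 1 rose. This was Pigr, the epithelial receptor that carries polymeric IgA and IgM to the airway surface. Its signal was 11.78 and 11.94 in the controls and 13.20 and 14.02 in the smoke pools, and it rose by 1.75 ± 0.165 (limma adjusted p = 0.00796). Fcer2a, the low-affinity IgE receptor CD23, was at 0.62 ± 0.112 (limma adjusted p = 0.0639), and the IgM receptor gene Fcmr was at -0.08. Fcer1a and Ms4a2, the alpha and beta chains with which Fcer1g forms the high-affinity IgE receptor of mast cells, were below the floor, at 4.10 to 5.34 in every pool.

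Downstream of the receptors, 2 of 22 kinases and substrates rose. Lcp2 (SLP-76), a scaffold phosphorylated by Syk, rose by 0.71 ± 0.108 and Pik3r5, a regulatory subunit of phosphoinositide 3-kinase gamma, by 0.86 ± 0.106. Its catalytic partner Pik3cg was at 0.61 ± 0.101, just short of the limit (limma adjusted p = 0.0514). Vav1, Btk, Fgr and Plcg2, which act next to Syk, were at 0.47, 0.36, 0.38 and 0.23 and did not pass, while the widely expressed Fyn, Plcg1 and Pik3r1 were at -0.14, -0.25 and -0.16. The list's median effect was 0.23, and in 14 of 22 genes both smoke pools were above both controls (15.7% of all genes).

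On the inhibitory side, 3 of 15 genes rose: Lilrb4a (2.00 ± 0.137) and Pirb (0.71 ± 0.104), which are ITIM receptors of myeloid cells, and Cd72 (0.63 ± 0.102, limma adjusted p = 0.0465), an ITIM receptor of B cells. The phosphatases that act at the ITIM did not pass, with Inpp5d at 0.19 and Ptpn6 at 0.36. Of 10 genes of the phagocyte oxidase and the phagocytic cup, 2 rose. They were the 2 membrane subunits of the oxidase, Cybb (1.03 ± 0.136) and Cyba (0.76 ± 0.106), while the cytosolic subunits Ncf1 (0.57 ± 0.114, limma adjusted p = 0.0900) and Ncf4 (0.19) did not pass. Of 7 regulators of Fc receptor transcription above the floor, 0 passed limma (2 at an unadjusted p under 0.05), and 0 did after cyclic loess, while 1 passed with protein-coding genes alone. Of the 2 partners of FcRn above, 0 passed either (1 at an unadjusted p under 0.05, 0 calls after cyclic loess). Irf8 was at 0.37, Ifngr2 at 0.31 and Irf1 at 0.17, and Ifng and Il10 had mean signals below the floor.

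**Figure D4:**
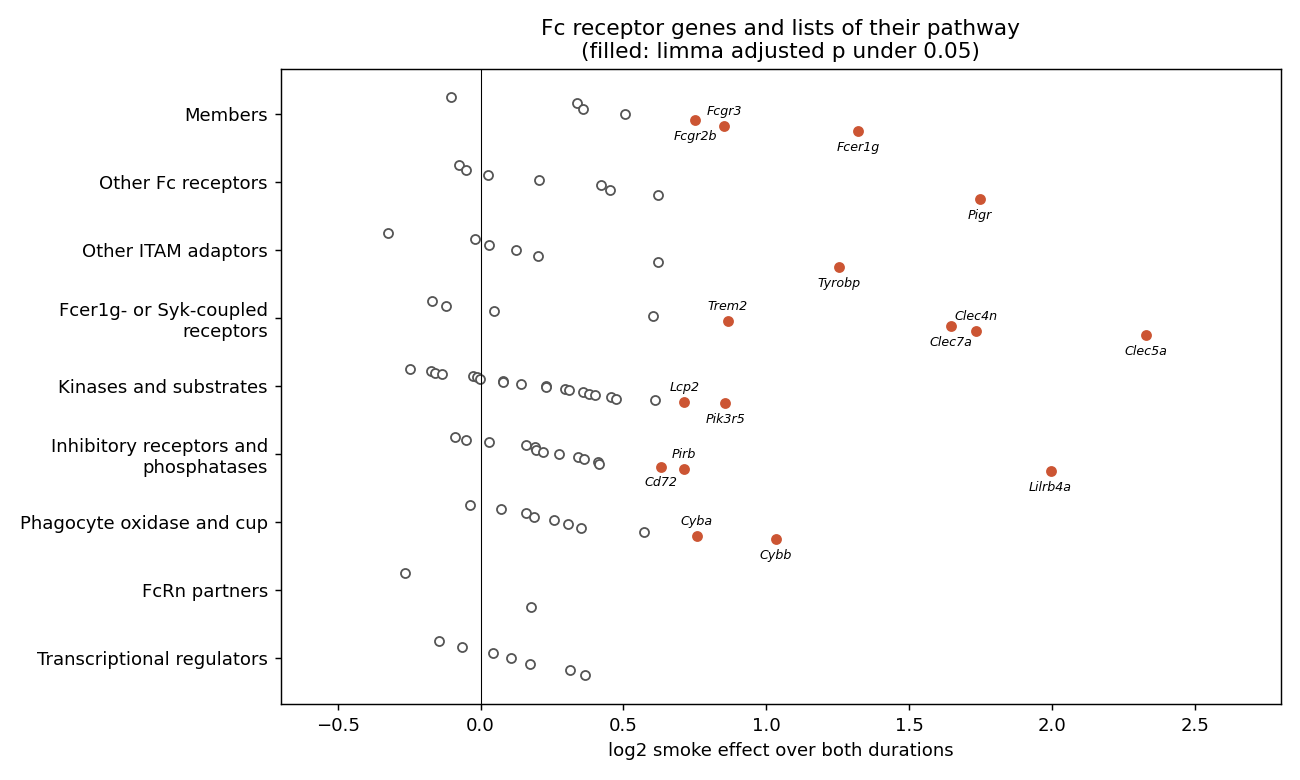
Log2 smoke effect over both durations (horizontal axis) for the 7 Fc receptor genes (top row, labelled members) and for the genes above the floor in 8 lists of their pathway; each point is 1 gene, and filled, named points have a limma adjusted p under 0.05. Filled points are 3 of 7 members and 13 of 79 listed genes, all to the right of 0.

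The genes whose 4 values ran most like those of each called member were found by Euclidean distance between mean-centred log2 values over the 4 pools, among 12574 other protein-coding genes. Nearest to Fcgr3 were Hebp1, a heme-binding protein (distance 0.04), Psap, the lysosomal saposin precursor (0.07), and Pik3r5 (0.07). Nearest to Fcgr2b were Rrm2, a ribonucleotide reductase subunit (0.04), Lipa, the lysosomal acid lipase (0.07), and Tnfrsf9, the costimulatory receptor 4-1BB (0.07). The nearest genes to Fcer1g were farther off: Ifi30, a lysosomal thiol reductase, at 0.34, Lrg1, a secreted glycoprotein, at 0.43, and Gstp3, a glutathione transferase, at 0.44. Like Fcer1g, these 3 had higher signals in the 4-week control than in the 2-week control, by 1.06, 1.83 and 1.26. With 4 pools, such likeness is a description.

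Some markers of cells that carry Fc receptors rose, while most did not pass the test. In whole-lung RNA, more cells of a type and more RNA per cell cannot be told apart. Of 7 alveolar macrophage markers measured, 3 rose (Marco, Cd68 and Itgax, by 2.70, 2.28 and 1.93). The summed linear signal of all 7 was 7342 and 9241 in the 2-week and 4-week controls against 15435 and 25704 in the smoke pools. Car4 had the highest signal of the 7 in both controls, at log2 11.76 and 11.96. The 4 markers other than Marco, Cd68 and Itgax did not pass. Fabp4 was at 0.30, Car4 at 0.26 and Siglecf at -0.003, and Krt79, with smoke differences of -0.35 and -0.28, was at -0.32. The median effect of the 7 markers was 0.30. Of 9 monocyte and interstitial macrophage markers, 4 rose, C1qb by 1.21, C1qc by 1.06, Cd14 by 1.04 and C1qa by 0.73. Of all genes tested, 1.15% rose. Where 15.7% of all genes had both smoke pools above both controls, 8 of these 9 markers did. Their summed signal, most of it from Ly6c2, was 50791 and 89289 in the controls and 61318 and 78936 with smoke. The part of these cells in the Fc receptor differences was not tested.

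Neutrophil markers differed between the control pools, with a median 0.86 higher at 4 than at 2 weeks. Their summed signal was 2993 and 5616 in the 2-week and 4-week controls and 3675 and 3010 in the smoke pools, and 1 of 8, the protease Mmp8, rose by 1.08 ± 0.138. The median effect of the 8 was -0.44, and 3 of them were lower with smoke at both durations. S100a9 was at -1.33, S100a8 at -0.72, Csf3r at -0.58, Retnlg at -0.46, Cxcr2 at -0.42 and Ly6g at -0.07. Ltf went the other way, at 0.87, with smoke differences of 1.53 at 2 weeks and 0.22 at 4 weeks. None of these 7 passed limma, and 3 of the 8 markers had an unadjusted p under 0.05. The sum of the markers and Fcer1g were both lowest in the 2-week control and higher in the 4-week control. In the sum of the markers the 4-week control was the highest pool, and in Fcer1g it was below both smoke pools. The part of neutrophils in the Fcer1g values was not tested. None of 7 B cell, 3 NK cell, 5 T cell, 5 dendritic cell or 3 mast cell and basophil markers above the floor passed limma, with 1, 0, 2, 2 and 0 at an unadjusted p under 0.05, and none did after cyclic loess. With protein-coding genes alone 1 B cell, 2 T cell and 2 dendritic cell markers passed, and 1 B cell marker also passed with a floor at the 60th percentile, a trend in the prior or the pseudocount. Among markers of structural cells, 1 of 4 endothelial genes fell (Cldn5, by 0.81 ± 0.102) and 0 of 3 alveolar type 2 genes passed (1 unadjusted). The B cell list, which includes Fcer2a, had a median effect of -0.10, with Ms4a1 (CD20) at -0.10 and Pax5 at -0.15. The eosinophil markers Ccr3, Epx and Prg2 and the mast cell and basophil markers Tpsb2 and Mcpt8 were below the floor.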

How the data were processed

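RNA of 4 pooled lung samples was measured on 1 array each. Per the labels' protocols the RNeasy Mini Kit served for extraction and the GeneChip WT PLUS kit for labelling. The authors deposited linear intensities. Per the submitters' processing notes, Affymetrix Expression Console 1.4.1 was used with RMA, which corrects background, normalizes the arrays and summarises probes. RMA makes the arrays' distributions alike, so only differences relative to other genes remain. No source used here gives the genome build or filters. Values ran from 4.93 to 845602, and 541 to 581 features per array exceeded 65535, the top of a 16-bit scan. The table held 65956 features, of which 30604 had 1 symbol in the array annotation, 2146 several and 33206 none listed. Symbols were updated through Entrez IDs with a RefSeq table (GRCm38.p6), which matched 22818 features and changed 827 symbols. The feature with the highest mean stood for a gene.

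Samples were grouped by title. Log2 values were fitted with limma 3.58.1 (R 4.3.3), terms for smoke and duration, over 18084 genes above the 40th percentile of mean signal, with Benjamini-Hochberg adjustment. On simulated data for this comparison (18084 genes, 200 changed, 20 runs) the share found was 28.6% at 1.5-fold, 94.8% at 2-fold, 99.8% at 4-fold and 100% at 8-fold, and 8.25% of calls were false. The simulated noise was drawn from the prior of the fit, independently for each gene and array. These shares therefore hold under that model and do not measure how real pools vary. Other scalings, floors, gene sets, models, a pseudocount of 16 and fits without each pool were tried. The mean of all features was not needed for members, which had 1 feature each.

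The members and lists were chosen with earlier results of these data known, so list counts are no independent support. Named were all members; from each list, the called genes with the largest effects (up to 4) and its defining genes; the 3 genes nearest each called member; and neighbours of the chromosome 1 cluster. Table columns of other samples numbered 0. The array count limits the precision of every value.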

Additional observations from a re-analysis of the deposited data

Results flagged for a closer look

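Fcgrt, the neonatal Fc receptor gene, was the 1 member whose smoke difference changed sign between durations, from 0.04 at 2 weeks to -0.24 at 4 weeks, a change of -0.29. Each duration had 1 smoke and 1 control pool, and the difference between durations was not tested.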

How the results depend on the processing

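The signs of the 6 higher members over both durations were the same under every alternative run, but the calls were not. Calls among members numbered 0 after median centring, cyclic loess and renewed quantile normalization and without the duration term, and 6 with protein-coding genes alone, against 3. Over all genes these alternatives called 8, 24, 11, 0 and 882 genes, against 265, with unadjusted p under 0.05 in 2034, 2161, 2123, 1163 and 2159 genes. In the same order (median centring, cyclic loess, quantile, no duration) the effects that lost their call were 1.32, 1.36, 1.34 and 1.32 for Fcer1g, 0.85, 0.88, 0.86 and 0.85 for Fcgr3 and 0.75, 0.77, 0.76 and 0.75 for Fcgr2b, whose effect of 0.75 also lost its call with no floor. Fcgr1, Fcgr4 and Syk gained a call at unchanged effects of 0.36, 0.51 and 0.34 with protein-coding genes alone. The prior of the spread had 5.38 degrees of freedom, 3.18 to 3.30 after scaling again and 12.2 with protein-coding genes alone; the cause was not tested further.

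Fits without 1 pool and without duration called 0 to 34 genes and 0 to 0 members, with unadjusted p under 0.05 in 597 to 1469 genes. Effects then ran from 0.60 to 2.04 for Fcer1g, 0.63 to 1.08 for Fcgr3 and 0.55 to 0.95 for Fcgr2b. Fcgrt changed sign without the 4-week control pool (0.00041), and its other values without a pool went down to -0.20. Fcgr1 and Fcgr4 lay at or under the 60th percentile floor and were not fitted there. At most 4 of 7 members were 1.5-fold higher at 4 weeks, and 3 with the pseudocount. Each group was 1 pool on 1 array, so smoke and control pools could be matched by duration only. The duration term of the fit does this and is the only block.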
